A study of Homo sapiens with 3 samples.

Results

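The neuroendocrine lineage regulators examined here are 9 genes, NKX2-1, SOX2, POU3F2, INSM1, NEUROD1, FOXA2, ONECUT2, REST and SRRM4. They were taken by gene name from a table of 58735 genes, and each name matched a single row. The table holds RNA-seq of H660 (NCI-H660), an established human cell line of neuroendocrine prostate cancer. Parental H660 cells received the vehicle DMSO, JG231 at 2.5 µM or JG231 at 5 µM, with 24 h of exposure given in the study's methods. JG231 is an allosteric inhibitor of the chaperone HSP70, and the comparison of each dose with DMSO asks how the RNA of these cells differed under it. There was 1 library per condition, so no difference below has a replicate check or a p-value, and each comparison is between libraries of a single cell line. In bulk RNA, fewer cells expressing a gene and less of its RNA per cell cannot be told apart.

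Neuroendocrine prostate cancer cells carry the secretory granules and synaptic proteins of nerve-like endocrine cells. Transcription factors of the SOX, POU, homeobox, forkhead, zinc finger and basic helix-loop-helix families set up that state in lung, pancreas, pituitary and brain. REST works the other way, as a repressor that silences neuronal genes in non-neuronal cells, and the splicing factor SRRM4 includes a neural exon in REST transcripts that truncates the repressor. NKX2-1 is best known for directing lung and thyroid development, and it is a routine stain for small cell carcinomas.

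At both doses the regulators that were abundant in DMSO cells were still abundant, and the largest difference from DMSO was a lower level of ONECUT2 at 5 µM. Levels are in FPKM, the number of fragments of a gene divided by its transcript length and by the depth of the library. A change is the log2 ratio of FPKM in a JG231 library to FPKM in DMSO with 0.1 added to both, and a gene was tested where FPKM was over 1 in either library. At 5 µM, 3 of the 7 regulators tested were lower by more than 0.25 (INSM1, ONECUT2 and POU3F2) and 0 were higher, where 45.1% of the 15765 genes tested were lower and 36.5% were higher. Beyond a log2 change of 1, only ONECUT2 was lower and no regulator was higher, against 24.3% and 14.7% of genes. At 2.5 µM, 1 of the 7 was lower (ONECUT2) and 2 were higher (INSM1 and FOXA2), against 43.4% and 36.4% of 15746 genes. Beyond a log2 change of 1 at that dose, ONECUT2 was lower and FOXA2 was higher, against 21.7% and 12.9% of genes. Between the JG231 libraries, 4 of 6 regulators were lower at 5 than at 2.5 µM (NKX2-1, INSM1, FOXA2 and POU3F2) and 0 were higher, against 30.1% and 26.8% of 14197 genes. The 3 of 7 at 5 µM is close to the share of all genes, and 7 genes are too few to read the other counts as a departure from theirs. The remaining pair of the 9, NEUROD1 and SRRM4, did not reach 1 FPKM in any library.

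The median change of the 7 tested regulators was −0.23 at 5 µM, beside −0.11 over all genes tested, and 0.09 at 2.5 µM, beside −0.08. Both doses share the DMSO library, so they are given side by side and not as independent evidence. These medians rest on how the libraries are scaled. Mitochondrial and small RNA genes took 40.5% of summed FPKM in DMSO, 24.6% at 2.5 µM and 29.2% at 5 µM. Scaling the libraries without those genes moved the median gene to −0.38 at 5 µM and −0.28 at 2.5 µM, while a common FPKM sum over all genes moved it to −0.14 and 0.05. In the FPKM as given the median gene with a mean of at least 1 lay at −0.01 at 5 µM and 0.00 at 2.5 µM, so the changes below are in effect relative to it. Without mitochondrial and small RNA genes, 6 of 7 regulators were lower at 5 µM and 3 were lower at 2.5 µM, with 60.1% and 56.2% of all genes lower and 23.0% and 24.6% higher.

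Depth was read back from the FPKM themselves. For genes with a single transcript, FPKM multiplied by transcript length fell on whole multiples of 62.2 in DMSO, 49.1 at 2.5 µM and 41.6 at 5 µM, which gives about 16086740, 20372823 and 24061019 fragments. Genes above 0 numbered 21862 in DMSO, 19352 at 2.5 µM and 17293 at 5 µM, fewer in the deeper libraries. Among the single-transcript genes under 50 fragments, 90.2%, 87.9% and 86.5% lay within 0.1 of a whole number. Intervals below are 95% exact (Clopper-Pearson) intervals of a ratio of FPKM, without a pseudocount, from these fragments. They cover counting error only, since the protocol sources name no molecular identifiers and PCR copies are not independent molecules. As a yardstick, the spread of a gene is a robust SD of the log2 difference between the JG231 libraries, taken from 500 genes of similar mean level, which includes any true difference between doses.

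The label describes the cells as prostatic adenocarcinoma, and the secretory luminal markers reported here were at or near 0. The neuroendocrine markers CHGA, SYP, ENO2, NCAM1, CHGB and SCG3 were over 1 FPKM in every library. The neuronal enolase ENO2 was at 37.0 FPKM in DMSO, 30.8 at 2.5 µM and 27.8 at 5 µM. CHGA, SYP, CHGB and SCG3 are also among the REST targets below. Markers of the lineage were thus present in every library, each of these highest in DMSO. Among luminal prostate markers, KRT8 was at 224, 414 and 505 FPKM and KRT18 at 170, 299 and 380 FPKM, and these are keratins of simple epithelia in general. KLK2 was listed at 0 in every library and KLK3 was at 0.134, 0.0317 and 0 FPKM. Markers of other cell types were low. Of 3 basal markers KRT5 and KRT14 were listed at 0 throughout and TP63, the most abundant, was under 1 FPKM in each library. The 3 tuft cell markers, of which 1 was over 1 FPKM in DMSO and 0 under JG231, summed to 2.05, 0.625 and 0.716 FPKM with AVIL the most abundant and TRPM5 listed at 0. The 5 stromal markers, with 1, 1 and 2 over 1 FPKM, summed to 3.36, 9.27 and 7.70 FPKM, most of it VIM at 2.52, 8.43 and 6.38 FPKM, with DCN listed at 0. VIM, a marker on the stromal list, was thus higher under JG231 in this cell line. The sums of the basal, tuft cell, endothelial and immune lists were highest in DMSO. The 3 endothelial markers, with 1, 0 and 0 over 1 FPKM, summed to 5.13, 0.741 and 0.581 FPKM, with CDH5 the most abundant and PECAM1 listed at 0. The 3 immune markers summed to 0.284, 0 and 0 FPKM, all from CD68, with PTPRC and CD3E listed at 0. The part of these marker shifts in the changes of the regulators was not tested, nor was that of the smaller number of genes above 0 under JG231 in the lower values of TP63, CDH5 and CD68.

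**Figure D1:**
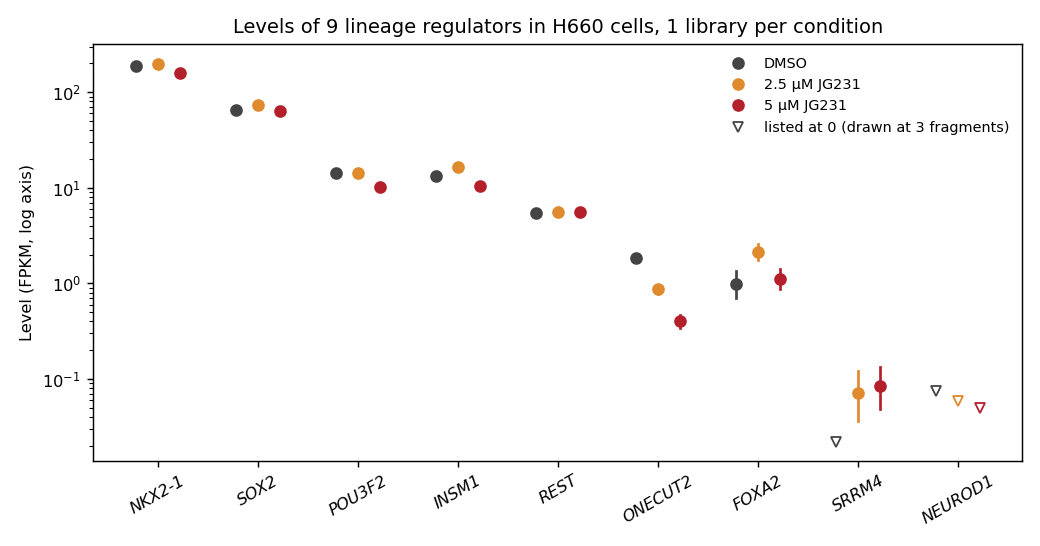
FPKM (log axis) of the 9 regulators in the DMSO, 2.5 µM and 5 µM libraries, 1 library each, with 95% exact Poisson intervals for counting error; open triangles mark values listed at 0, drawn at the level of 3 fragments. NKX2-1 stands highest at 186, 198 and 159 FPKM and NEUROD1 is listed at 0 in every library.

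The plot of levels by library shows regulators from among the most abundant RNAs of these cells down to the limit of detection. In DMSO the order was NKX2-1, SOX2, POU3F2, INSM1, REST, ONECUT2 and FOXA2, with SRRM4 and NEUROD1 listed at 0. POU3F2 and INSM1 could not be ordered there, since their ratio was 1.06 with an interval of 0.957 to 1.17. The pair also did not differ beyond counting error at 5 µM, where INSM1 over POU3F2 was 1.02 (0.931 to 1.12), while at 2.5 µM the ratio was 1.15 (1.06 to 1.25). The only other change of order was between ONECUT2 and FOXA2. ONECUT2 was 1.87 times FOXA2 in DMSO (1.35 to 2.65), whereas FOXA2 was 2.46 times ONECUT2 at 2.5 µM (1.95 to 3.07) and 2.78 times at 5 µM (2.05 to 3.70). These between-gene ratios assume the canonical transcript length of each gene. Of the 9 genes, the single-transcript ones in the annotation are INSM1, POU3F2 and SOX2, and fragment numbers of the others are approximate.

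NKX2-1 (ENSG00000136352) lies on the minus strand of chromosome 14 at 36516392 to 36521149 in GRCh38, with 3 exons in its canonical transcript of 2190 bases. Its product is the homeodomain protein of lung, thyroid and ventral forebrain, and its RNA was the most abundant of the 9. It stood at 186 FPKM in DMSO, 198 at 2.5 µM and 159 at 5 µM, from about 6568, 8853 and 8353 fragments. Among protein-coding genes that placed it at ranks 103, 151 and 229. The level was thus high in all 3 libraries, slightly above DMSO at the lower dose and slightly below it at the higher dose. The change was 0.09 at 2.5 µM (interval 0.04 to 0.14) and −0.23 at 5 µM (−0.28 to −0.19), the latter just beyond a spread of 0.20, and these came to −0.20 and −0.61 without mitochondrial and small RNA genes, with the sign at 2.5 µM turned. Between the JG231 libraries the change was −0.32 (−0.37 to −0.28).

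Promoters, 250 bases before to 50 after a start site, were matched in RefSeq (GRCh38.p14) for 7 of the 9 genes, in 9 sequences. None was matched for INSM1 and FOXA2 in the set of promoters used here. The 9 sequences were searched on both strands for 8 motifs. Shown are 3 sequences, those of the most abundant regulators and of the gene with the lowest ratio to DMSO. NKX2-1 has a pair of RefSeq start sites. The promoter of the second, at chr14:36519507-36519806 on the minus strand, is shown because it holds the only forkhead match, TGTTTAC, found among the 9 sequences. The capitals mark that match, at position −130 from the start, and 3.42% of 35116 promoters hold it on either strand.
NKX2-1, second start site: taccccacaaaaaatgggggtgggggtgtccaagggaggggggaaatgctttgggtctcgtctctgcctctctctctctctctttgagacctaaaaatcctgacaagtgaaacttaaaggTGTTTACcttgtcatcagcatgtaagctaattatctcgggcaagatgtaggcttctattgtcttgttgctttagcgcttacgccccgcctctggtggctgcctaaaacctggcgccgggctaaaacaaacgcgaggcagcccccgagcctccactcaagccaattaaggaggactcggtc

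The long noncoding gene NKX2-1-AS1 overlaps NKX2-1 on the opposite strand and behaved differently in these values. It stood at 13.8 FPKM in DMSO, 4.59 at 2.5 µM and 3.51 at 5 µM, lower in both JG231 libraries, with changes of −1.57 and −1.95. The libraries were stranded, but whether counting used the strand is not given in the sources used here, so reads of an overlapping pair may not be fully told apart. MBIP, the protein-coding neighbour on the same strand at a distance of 195755 bases, was at 78.2, 40.7 and 37.0 FPKM. NKX2-8, the homeobox paralogue on the other side at 58855 bases, was at 1.53, 5.37 and 2.57 FPKM. In the FPKM as given, both neighbours differed from DMSO by more than NKX2-1 did.

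Lung and thyroid genes known as NKX2-1 targets had lower medians than NKX2-1 itself, which was also lower at 5 µM. Of 16 such genes, 7 were tested, and 7 were lower by more than 0.25 at each dose and 0 higher, also under every scaling tried and with the length trend removed, beside the 45.1% and 43.4% of all genes that were lower at 5 and 2.5 µM. Their median change was −1.29 at 5 µM and −1.14 at 2.5 µM. SFTPD, named after its values were seen, passed the filter only through DMSO. With FPKM over 1 asked of both libraries, a filter chosen after seeing the data, 6 were tested and 6 were lower at each dose, with medians of −0.95 and −0.96, beside 35.8% and 34.6% of all genes. SFTPB, a surfactant protein of the alveolus, went from 83.7 FPKM in DMSO to 20.6 at 2.5 µM and 19.5 at 5 µM. LAMP3, a lysosomal membrane protein of lamellar bodies, was at 102, 66.3 and 66.3 FPKM, and SFTA3 (ENSG00000229415), annotated as a long noncoding gene, at 43.6, 25.1 and 29.1 FPKM. GENCODE 44 gives the same name to ENSG00000257520, which overlaps NKX2-1 on its strand and was listed at 0 in every library. In SFTPB, LAMP3 and SFTA3 DMSO was the highest library and the JG231 libraries were close to each other. ABCA3, the lipid transporter of lamellar bodies, was at 4.08, 1.80 and 1.61 FPKM. SFTPA1 was at 14.0, 4.11 and 2.31 FPKM and SFTPA2 at 24.3, 18.2 and 18.4 FPKM, but these genes are near-identical copies and how fragments were divided between them is uncertain. Another 5 of the 16 were listed at 0 in every library. Which factor acts on these genes in H660 was not tested.

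SOX2 (ENSG00000181449), on the plus strand of chromosome 3 at 181711925 to 181714436, is a gene of 1 exon and 2512 bases. It encodes an HMG-box factor of stem and neural progenitor cells. Its level was 64.8 FPKM in DMSO, 74.3 at 2.5 µM and 64.3 at 5 µM, from 2617, 3802 and 3883 fragments. As given, the DMSO and 5 µM values were almost equal and the 2.5 µM value was the highest. The change was 0.20 at 2.5 µM (0.13 to 0.27), within its spread of 0.22, and came to −0.09 without mitochondrial and small RNA genes. At 5 µM it was −0.01 (−0.08 to 0.06), or −0.39 by the same scaling, which put the median gene at −0.38. The long noncoding gene SOX2-OT overlaps SOX2 on the same strand and was at 0.344, 0.301 and 0.327 FPKM, far below it. The SOX2 promoter, at chr3:181711675-181711974 on the plus strand, is shown as that of another of the most abundant regulators, and none of the 8 motifs was found in it, so it carries no capitals.
SOX2: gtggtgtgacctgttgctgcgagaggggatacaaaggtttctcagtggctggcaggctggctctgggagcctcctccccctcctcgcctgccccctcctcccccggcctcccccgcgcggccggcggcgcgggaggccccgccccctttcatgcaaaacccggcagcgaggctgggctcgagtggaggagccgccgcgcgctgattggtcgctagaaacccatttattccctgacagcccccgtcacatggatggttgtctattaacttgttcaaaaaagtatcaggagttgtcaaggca

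POU3F2 (ENSG00000184486), also called BRN2, is likewise a gene of 1 exon, on the plus strand of chromosome 6 at 98834574 to 98839458, with 4885 bases. This POU-domain factor acts in neurons of the hypothalamus and cortex and often works with SOX2 on neural enhancers. It stood at 14.2 FPKM in DMSO, 14.2 at 2.5 µM and 10.3 at 5 µM, from 1112, 1410 and 1207 fragments. Only the 5 µM library was low. The change there was −0.46 (−0.58 to −0.34), beyond the spread of 0.29, and it stayed negative under every alternative, from −0.84 to −0.27. The value of −0.27, with the length trend removed, lay within that spread. At 2.5 µM it was 0.00 (−0.11 to 0.12), or −0.29 without mitochondrial and small RNA genes. FBXL4, the nearest protein-coding gene at 29077 bases, was level at 8.56, 8.61 and 8.55 FPKM.

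INSM1 (ENSG00000173404), a gene of 1 exon on the plus strand of chromosome 20 at 20368104 to 20370949, encodes a zinc finger factor needed for endocrine cell differentiation and is used as a nuclear neuroendocrine marker. Its level was 13.4 FPKM in DMSO, 16.3 at 2.5 µM and 10.5 at 5 µM, from 613, 947 and 719 fragments. DMSO lay between the JG231 libraries, with the lower dose on top. The change was 0.29 at 2.5 µM (0.14 to 0.44), which came to −0.0045 without mitochondrial and small RNA genes, and −0.35 at 5 µM (−0.51 to −0.19). Against a spread of 0.30, the first lay within it and the second just beyond. Between the JG231 libraries it was −0.63 (−0.78 to −0.50), more than its spread. The neighbour RALGAPA2, at 18581 bases on the opposite strand, was at 5.76, 3.38 and 3.15 FPKM.

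NEUROD1 (ENSG00000162992), on the minus strand of chromosome 2 at 181668295 to 181680827, encodes the basic helix-loop-helix factor that defines a neuronal subtype of small cell lung cancer. It was listed at 0 in each library, where 3 fragments would correspond to 0.0748, 0.0591 and 0.0500 FPKM. The gene was therefore not detectable at this depth, and no change can be given. None of 12 common household genes was listed at 0 in any library. CERKL, which overlaps it on the same strand, was at 0, 0.0927 and 0 FPKM.

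FOXA2 (ENSG00000125798), on the minus strand of chromosome 20 at 22580998 to 22585455, encodes a forkhead pioneer factor of endoderm. It was low, at 0.979 FPKM in DMSO, 2.13 at 2.5 µM and 1.12 at 5 µM, from about 40, 110 and 68 fragments. The 2.5 µM library was the highest and the other two lay close together. The ratio at 2.5 µM was 2.18-fold, with a change of 1.05 (0.58 to 1.68) that was beyond the spread of 0.89. It came to 0.78 without mitochondrial and small RNA genes, where the median gene lay at −0.28, and to 0.66 with a pseudocount of 1. Both values were under the threshold of 1 and within that spread, which was taken from the FPKM as given. At 5 µM the change was 0.17 (−0.40 to 0.79), within counting error, and it turned to −0.17 without mitochondrial and small RNA genes. Its paralogue FOXA1, the forkhead factor of luminal prostate, was far more abundant at 67.5, 97.7 and 78.9 FPKM.

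ONECUT2 (ENSG00000119547), on the plus strand of chromosome 18 at 57435374 to 57491298, encodes a cut-homeobox factor of liver, pancreas and retina. Its canonical transcript of 16433 bases is much the longest of the 9. The level was 1.83 FPKM in DMSO, 0.865 at 2.5 µM and 0.402 at 5 µM, from about 484, 290 and 159 fragments. Each library was thus below the previous one, from vehicle to the lower and then the higher dose. FPKM was 2.12-fold lower at 2.5 µM and 4.55-fold lower at 5 µM, with log2 intervals of the ratio of −1.29 to −0.87 and −2.45 to −1.93. With 0.1 added the changes were −1.001, barely past the threshold of 1 and within the spread of 1.16, and −1.94, beyond it. They stayed negative under every alternative, from −1.27 to −0.57 and from −2.28 to −1.01. At 5 µM the change was −1.01 with a pseudocount of 1, within the spread of 1.16. With the length trend removed it was −1.22, just beyond that spread. The promoter, at chr18:57435124-57435423 on the plus strand, is shown because this gene had the lowest ratio to DMSO. The capitals mark CAGCTG, an E-box of basic helix-loop-helix factors, at position −93 from the start, which 17.9% of promoters hold.
ONECUT2: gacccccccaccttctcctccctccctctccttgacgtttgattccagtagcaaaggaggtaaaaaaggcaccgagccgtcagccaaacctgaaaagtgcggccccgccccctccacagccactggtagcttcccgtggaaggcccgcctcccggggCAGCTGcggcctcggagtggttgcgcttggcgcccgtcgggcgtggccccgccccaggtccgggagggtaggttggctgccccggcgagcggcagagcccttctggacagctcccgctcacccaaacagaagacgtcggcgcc

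**Figure D2:**
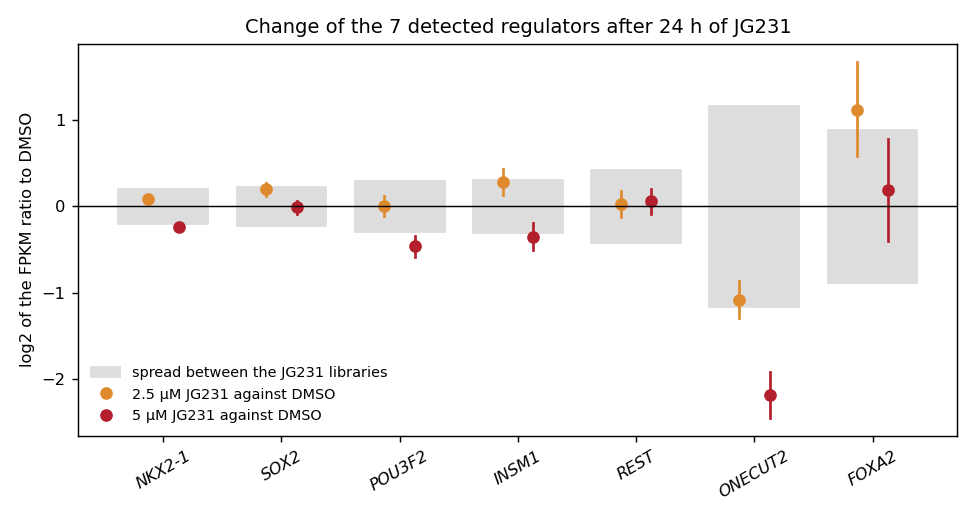
Log2 of the FPKM ratio to DMSO (no pseudocount) for the 7 regulators detected in every library, at 2.5 and 5 µM, with 95% intervals for counting error; grey boxes reach 1 spread of the JG231 libraries to either side of 0. ONECUT2 is lower at both doses, 2.12-fold and 4.55-fold, and FOXA2 is 2.18-fold higher at 2.5 µM.

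REST (ENSG00000084093), on the plus strand of chromosome 4 at 56907876 to 56966808, was measured at 5.43 FPKM in DMSO, 5.55 at 2.5 µM and 5.65 at 5 µM. That came from about 638, 826 and 993 fragments. The repressor's RNA was therefore at nearly the same level in every library. The change was 0.03 at 2.5 µM (−0.12 to 0.18) and 0.06 at 5 µM (−0.09 to 0.20), both within the spread of 0.42, which became −0.26 and −0.32 without mitochondrial and small RNA genes and 0.25 and 0.46 with the length trend removed. The table gives 1 value for the gene, so transcripts with and without the neural exon were not distinguished. NOA1, which overlaps REST on the opposite strand, was at 9.68, 16.1 and 16.1 FPKM, with the same caution about strand as above.

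SRRM4 (ENSG00000139767), on the plus strand of chromosome 12 at 118981541 to 119163051 with 13 exons, was listed at 0 in DMSO and measured at 0.0721 FPKM at 2.5 µM and 0.0845 at 5 µM. The JG231 values rest on about 12 and 17 fragments, and 3 fragments in DMSO would correspond to 0.0221 FPKM. All 3 values are near the limit of detection. No fold is given against a value listed at 0. The ratio of 5 to 2.5 µM was 1.17, with a log2 interval of −0.89 to 1.46. Its paralogue SRRM3, which also controls neural microexons, was at 7.35, 5.86 and 5.03 FPKM, with changes of −0.32 and −0.54 at 2.5 and 5 µM.

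Around REST, the 21 genes of its corepressor complex and turnover were over 1 FPKM in some library, and all 21 were tested. At 5 µM 3 were higher and 9 lower, against 36.5% and 45.1% of all genes, and at 2.5 µM 6 were higher and 9 lower, against 36.4% and 43.4%, with medians of −0.18 and −0.09. This split depended on the processing. Without mitochondrial and small RNA genes 2 were higher and 16 lower at 5 µM, against 23.0% and 60.1% of all genes. At 2.5 µM by that scaling 2 were higher and 15 lower, against 24.6% and 56.2%. The list medians there were −0.56 and −0.38 at 5 and 2.5 µM, beside −0.53 and −0.40 over all genes. With the length trend removed 9 were higher and 7 lower at 5 µM, against 33.0% and 46.3% of all genes. At 2.5 µM 6 were higher and 7 lower, against 32.9% and 45.7%, and the medians were −0.09 and 0.00. The deacetylase HDAC1 was at 76.4 FPKM in DMSO, 43.1 at 2.5 µM and 38.9 at 5 µM, lower in both JG231 libraries, while HDAC2 was level at 30.5, 28.6 and 28.8 FPKM. The demethylase KDM1A was at 26.2, 24.9 and 23.1 FPKM and the phosphatase CTDSP2, which stabilises REST, at 22.3, 22.4 and 24.4 FPKM. The corepressor RCOR2 stood at 3.47, 1.67 and 1.35 FPKM and the phosphatase CTDSPL at 5.84, 4.51 and 2.72 FPKM. In the FPKM as given, REST and its most abundant partners other than HDAC1 thus differed little between libraries.

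Neuronal genes known as REST targets were split. Of 40, 31 were tested, of which 18 were lower and 8 higher at 5 µM, and 15 lower and 8 higher at 2.5 µM, with medians of −0.33 and −0.19. Over all genes 45.1% and 43.4% were lower and 36.5% and 36.4% higher. Without mitochondrial and small RNA genes 22 were lower and 4 higher at 5 µM, against 60.1% and 23.0% of all genes. At 2.5 µM 21 were lower and 4 higher, against 56.2% and 24.6%. The medians by that scaling were −0.70 and −0.47, beside −0.53 and −0.40 over all genes. With the length trend removed 18 were lower and 7 higher at 5 µM, against 46.3% and 33.0% of all genes. At 2.5 µM 18 were lower and 8 higher, against 45.7% and 32.9%, and the medians were −0.46 and −0.33. Some of the lower genes, KCNC1 among them, passed the filter only through DMSO, and with FPKM over 1 in both libraries 15 of 28 were lower and 8 higher at 5 µM and 12 and 8 at 2.5 µM, against 35.8% and 34.6% of all genes lower and 40.2% and 39.4% higher. CHGA, the granule protein chromogranin A, was at 46.0 FPKM in DMSO, 15.05 at 2.5 µM and 12.7 at 5 µM. CPLX2, a complexin of synaptic release, was at 31.7, 11.7 and 7.40 FPKM, and the potassium channel gene KCNC1 at 2.72, 0.538 and 0.764 FPKM. Lower values in both JG231 libraries were also seen for STMN3, at 88.5, 53.5 and 60.1 FPKM, and SCG3, at 64.5, 35.4 and 33.4 FPKM. The granule protein SCG2 went the other way, at 15.3, 29.5 and 30.6 FPKM, and GDAP1 was at 20.4, 32.1 and 24.2 FPKM. These targets thus lay on both sides of DMSO while REST RNA itself was level in the FPKM as given.

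Among 22 neural splicing regulators, which include the antagonists of neural exons, 15 were tested. At 5 µM 5 were higher and 7 lower, against 36.5% and 45.1% of all genes, and at 2.5 µM 7 were higher and 5 lower, against 36.4% and 43.4%. The medians of −0.06 and 0.21 were not stable in sign. They came to −0.63 and −0.20 without mitochondrial and small RNA genes, beside −0.53 and −0.40 over all genes. By that scaling 4 were higher and 10 lower of 16 at 5 µM, against 23.0% and 60.1% of all genes. At 2.5 µM 5 were higher and 8 lower, against 24.6% and 56.2%. The list medians came to 0.17 and 0.42 with the length trend removed. PTBP1, the general repressor of neural exons, was at 90.1 FPKM in DMSO, 141 at 2.5 µM and 153 at 5 µM. ESRP1, which maintains epithelial splicing, was at 41.1, 93.7 and 83.0 FPKM, and KHDRBS3 at 6.75, 16.5 and 17.7 FPKM. These 3 genes were higher in both JG231 libraries. The SRRM4 relative SRRM2, a spliceosome scaffold, was at 60.6, 39.3 and 23.7 FPKM, PTBP3 at 19.0, 18.4 and 13.7 FPKM and MBNL3 at 3.14, 1.55 and 1.02 FPKM.

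Most paralogues of the 9 regulators did not reach 1 FPKM. Of 23, 11 were listed at 0 in every library and 8 were over 1 FPKM in some library. At 2.5 µM 5 of 8 tested were higher and 3 lower, against 36.4% and 43.4% of all genes, and at 5 µM 3 of 7 were higher and 2 lower, against 36.5% and 45.1%. The medians were 0.64 and 0.22. They came to 0.24 and −0.25 without mitochondrial and small RNA genes. By that scaling 4 of 9 tested were higher and 4 lower at 2.5 µM, against 24.6% and 56.2% of all genes. At 5 µM 3 of 8 were higher and 4 lower, against 23.0% and 60.1%. Some passed the filter only through the library where they were high, and with FPKM over 1 in both libraries 4 of 6 were higher and 2 lower at 2.5 µM (median 0.64) and 3 of 6 higher and 1 lower at 5 µM (0.47), against 39.4% and 34.6% and against 40.2% and 35.8% of all genes. NKX2-4, the closest relative of NKX2-1, was at 3.89 FPKM in DMSO, 10.2 at 2.5 µM and 10.8 at 5 µM. The forkhead gene FOXA3 was at 2.13, 3.65 and 3.92 FPKM, so that both were lowest in DMSO. NEUROG3, the endocrine progenitor factor upstream of NEUROD1 in pancreas, was at 4.02 FPKM in DMSO and 0.499 at 2.5 µM and was listed at 0 at 5 µM, in libraries with fewer genes above 0 than DMSO.

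Other proneural and neuroendocrine transcription factors were mixed in the FPKM as given. Of 42, 24 were tested, with 12 lower and 6 higher at 5 µM, against 45.1% and 36.5% of all genes, and 8 lower and 8 higher at 2.5 µM, against 43.4% and 36.4%. The medians were −0.27 and 0.03. The even split at 2.5 µM did not hold without mitochondrial and small RNA genes. By that scaling 12 were lower and 3 higher at that dose, against 56.2% and 24.6% of all genes. The list median there was −0.26, beside −0.40 over all genes. At 5 µM 18 were lower and 3 higher, against 60.1% and 23.0%. PAX5 was at 7.93 FPKM in DMSO, 1.58 at 2.5 µM and 1.03 at 5 µM, and MYCL at 20.9, 6.11 and 6.33 FPKM. Both were highest in DMSO, unlike NKX2-1, SOX2 and INSM1 in the FPKM as given. The ID proteins, which bind and block basic helix-loop-helix factors, were the most abundant of the list and moved apart. ID1 was at 577, 595 and 629 FPKM, ID2 at 404, 303 and 226 FPKM, ID3 at 197, 403 and 456 FPKM and ID4 at 105, 214 and 171 FPKM.

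**Figure D3:**
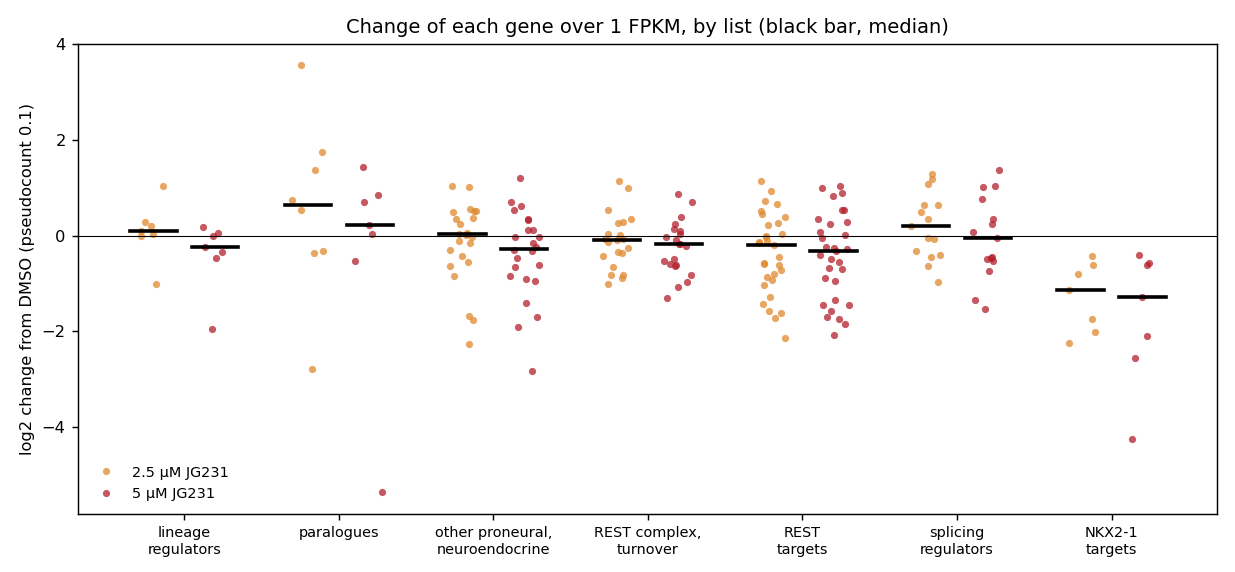
Log2 change from DMSO (0.1 added) of each gene over 1 FPKM in either library, for the 9 regulators and the 6 related lists, at 2.5 and 5 µM; each point is a gene and the black bar is the median. The medians of the regulators lie at 0.09 and −0.23, and those of the lung and thyroid genes at −1.14 and −1.29.

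Changes also ran with transcript length over the whole table. Protein-coding genes with a canonical length within 0.25 log2 units of ONECUT2, 92 in number, had a median change of −0.44 at 2.5 µM and −0.78 at 5 µM. Genes near the length of NKX2-1 had medians of 0.21 and 0.27. Less the lowess trend, ONECUT2 was at −0.57 and −1.22, still the lowest of the 7. NKX2-1 became −0.50 at 5 µM, INSM1 −0.46, POU3F2 −0.27 and SOX2 −0.20, each below genes of like length. REST, with a canonical transcript of 7309 bases, became 0.46 at 5 µM, since the 1205 genes near its length had a median of −0.43. FOXA2 stayed at 0.91 at 2.5 µM and was −0.01 at 5 µM. The source of the trend was not tested.

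**Figure D4:**
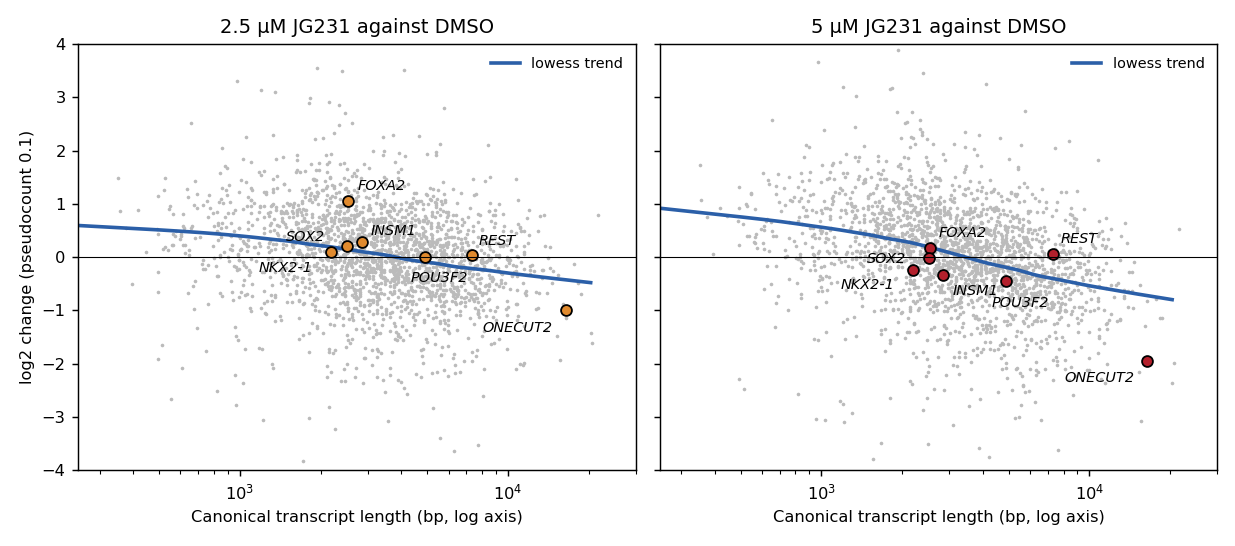
Log2 change from DMSO (0.1 added) against canonical transcript length (log axis) at 2.5 µM (left) and 5 µM (right), with the 7 regulators as filled circles over a sample of protein-coding genes in grey and the lowess trend in blue; the vertical axis is limited to the range shown. ONECUT2, at 16433 bases, lies below the trend at both doses and REST, at 7309 bases, above it.

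Likeness was measured as the larger of the differences between a pair of genes in their changes at each dose, over 3 libraries and 108 genes of the lists and the 9 with a mean FPKM of at least 1. Among the nearest to NKX2-1 were EHMT2 (0.05) and NFIB (0.12). Among the nearest to SOX2 were USP7 (0.06) and CDK5R1 (0.09), and nearest to POU3F2 were PTBP3 (0.05), CELF4 (0.13) and EHMT1 (0.13). In the FPKM as given, these genes shared the small differences of those 3 regulators. INSM1 was nearest to NOVA1 (0.14), to NKX2-1 (0.20) and to TCF12 (0.20), and REST to ID1 (0.07), CTDSP2 (0.08) and SOX11 (0.09). ONECUT2 and FOXA2 had no gene as close. ONECUT2 was nearest to MBNL3 (0.41), CPLX2 (0.43) and CHGB (0.50), and FOXA2 to GDAP1 (0.39), PTBP2 (0.40) and EYA1 (0.49).

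The promoters held little in common among the letters searched. Besides TGTTTAC at NKX2-1 and CAGCTG at ONECUT2, the single further match was CAGATG in the SRRM4 promoter, at position −155, which 14.7% of promoters hold. No match was found for CACGTG, the E-box of the MYC family (7.26% of promoters), for TTCAGCACC, the left part of the REST site (0.376%), or for ATCGAT, the cut-homeobox core (0.763%). The same held for the octamer ATGCAAAT (1.77%) and for GAANNTTC, a pair of heat shock element units (6.77%). The matches are descriptions of these windows and say nothing about binding.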

How the data were processed

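RNA from H660 cells under DMSO or JG231 was sequenced by the authors as stranded mRNA libraries, 1 per condition. The authors deposited FPKM per gene. Their methods name HISAT and StringTie, while the submitters' processing notes name HISAT2 and featureCounts with builds GRCh38 and hg38, and give no versions. Doses follow the sample titles, with the unit and the time from the methods. Gene positions, transcript numbers and canonical lengths came from GENCODE 44, which held 58207 of the genes by identifier.

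Changes used a pseudocount of 0.1 and, as in the study's methods, a threshold of 0.25, with 1 beside it. The methods also filter at an expression over 1, taken here as FPKM over 1 in either library; their separate handling of changes from or to 0 was not used here. With 1 library per condition there was no test. Fragments were FPKM times canonical length over the step read from single-transcript genes, and the floor was 3 fragments. The code was tested on simulated data. Alternatives were pseudocounts of 1 and 0.01, scalings between libraries, removal of a lowess trend on length (fraction 0.3), other filters and a higher threshold.

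All 9 regulators are named. From each list, genes that averaged 1 FPKM or more were named, up to 4 with the largest mean and up to 3 with the largest change at 5 µM of the same sign at both doses. Genes overlapping or nearest to a regulator were eligible too. Some genes that the rule or the marker lists would name are not reported here. The regulators and lists were chosen with earlier results of these data known. The comparison of 5 with 2.5 µM and the use of canonical lengths were added after values were seen. Intervals used scipy 1.17.1, the trend statsmodels 0.14.6, tables pandas 2.3.3 with numpy 2.4.6, and plots matplotlib 3.10.9, all under Python 3.11.15.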

Additional observations from a re-analysis of the deposited data

How the results depend on the processing

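Each change of the 7 detected regulators was recomputed under 6 alternatives at either dose. Of these 84 values, 59 stayed within the counting interval, 24 moved beyond it and 1 changed sign after passing 0.25: INSM1 at 2.5 µM, at −0.0045 without mitochondrial and small RNA genes. At 5 µM NKX2-1, INSM1, ONECUT2, POU3F2 and SOX2 were negative under all 6, and at 2.5 µM only ONECUT2 (negative) and FOXA2 (positive) kept their sign under all 6.

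The counts were less stable. Without mitochondrial and small RNA genes, 6 regulators were lower at 5 µM in place of 3. At 2.5 µM 3 were lower in place of 1 and 1 was higher in place of 2. Their medians by that scaling were −0.61 and −0.20. Over all genes 60.1% and 56.2% were lower by it at 5 and 2.5 µM, with medians of −0.53 and −0.40. With the length trend removed, 4 were lower at 5 µM in place of 3 and 1 was higher in place of 0, against 46.3% and 33.0% of all genes, and at 2.5 µM 1 was lower and 1 was higher in place of 2, against 45.7% and 32.9%. With no expression filter 1 was higher at 5 µM in place of 0 and 3 at 2.5 µM in place of 2; the gene added is SRRM4, listed at 0 in DMSO, whose sign there rests on few fragments. With FPKM over 1 asked of both libraries, an alternative chosen after seeing the data, 2 of 5 regulators were lower and 0 higher at 5 µM and 0 lower and 1 higher at 2.5 µM, as ONECUT2 and FOXA2 drop out, while over all genes 35.8% were lower and 40.2% higher at 5 µM and 34.6% and 39.4% at 2.5 µM. With a mean FPKM of at least 5, 0 were lower and 1 was higher at 2.5 µM. The shares of all genes with this filter or with no expression filter are not given here. The counts of regulators under those settings therefore cannot be set against them. At a threshold of 1, 1 was lower at 5 µM and 1 was higher at 2.5 µM, against 24.3% and 12.9% of all genes. Fewer regulators can pass a higher filter or threshold. The scalings and the removal of the length trend alter the changes themselves, and which setting is nearer the true levels was not tested.

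A single library per condition leaves culture, library and treatment inseparable, and the spread used as a yardstick comes from libraries of different dose. FOXA2 and SRRM4 rest on few fragments. Fragment numbers of genes with several transcripts are approximate.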

Other observations

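Some genes next to the regulators differed from them and others ran alongside. SUDS3, a subunit of the SIN3 deacetylase complex and the protein-coding neighbour of SRRM4 on its left at 563508 bases, was at 21.5 FPKM in DMSO, 15.5 at 2.5 µM and 9.35 at 5 µM, lower with each dose. HSPB8, a small heat shock protein 8504 bases beyond SRRM4, was at 0.456, 0.944 and 0.610 FPKM. FECH, the last enzyme of heme synthesis and the neighbour of ONECUT2, was at 6.32, 4.09 and 5.95 FPKM, without the lower value at the higher dose seen for ONECUT2. POLR2B, next to REST, was nearly level, like REST, at 27.9, 24.1 and 24.7 FPKM in the values as given. MMS22L, a replication repair gene and the neighbour of POU3F2 on its left at 1551357 bases, was at 2.37, 2.65 and 1.76 FPKM, with changes of 0.15 and −0.41 beside 0.00 and −0.46 for POU3F2. ITPRID2, next to NEUROD1, was at 3.65, 6.34 and 4.87 FPKM, beside NEUROD1 listed at 0.

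The paralogue NEUROD4, outside the rule for named genes and chosen after its values were seen, was listed at 0 in DMSO and measured at 1.08 FPKM at 2.5 µM and 0.883 at 5 µM, from about 86 and 83 fragments. In the same libraries NEUROD1 was listed at 0 and NEUROG3 was lower than in DMSO. The surfactant gene SFTPD, also chosen after its values were seen, was at 1.79 FPKM in DMSO and 0.297 at 2.5 µM and was listed at 0 at 5 µM, where fewer genes were above 0 overall (17293, against 21862 in DMSO).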
